A study of Mus musculus with 4 samples.

Results

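The respiratory chain genes described here are the 103 of the 32285 genes in the expression tables whose symbols start with the names of mitochondrially encoded subunits (mt-Nd, mt-Co, mt-Cy, mt-Atp) or of nuclear-encoded families (Ndufa, Ndufb, Ndufc, Ndufs, Ndufv, Uqcr, Cox4 to Cox8, Atp5). The rule uses symbols only and no measured value, but it was chosen with earlier results of these data known. Of these, 13 were encoded in mitochondrial DNA: 7 subunits of complex I, 1 of complex III, 3 of complex IV and 2 of complex V. The other 90 were nuclear genes, made up of 82 subunits (39 of complex I, 8 of complex III, 18 of complex IV and 17 of complex V) and 8 Ndufaf genes, which help to assemble complex I but are not part of it and are kept apart below. Complexes follow the symbol, so Ndufa4 and Ndufa4l2, which associate with complex IV, are counted with complex I. Cox8c had no count in any gated cell, and Cox7b2 had 6.

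The respiratory chain sits in the inner mitochondrial membrane. Complex I oxidises NADH, complex III passes electrons from ubiquinol to cytochrome c, complex IV (cytochrome c oxidase) reduces oxygen to water, and complex V uses the resulting proton gradient to make ATP. The catalytic core of complexes I, III and IV and part of the membrane sector of complex V are read from mitochondrial DNA, and all other subunits come from nuclear genes whose proteins are imported, so that each complex needs RNA from both genomes. Several complex IV subunits exist in alternative forms with tissue-restricted expression: Cox4i2 is best known from lung and from oxygen-sensing cells, and Cox6a2, Cox7a1 and Cox8b are the forms of heart and skeletal muscle.

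The results turn on both genomes, and the sequences that carry this are shown first. In mitochondrial DNA the open reading frames of mt-Atp8 and mt-Atp6, neighbouring subunits of complex V, overlap by 43 bases, so a read that covers the overlap can belong to either gene. Those of mt-Nd4l and mt-Nd4, both of complex I, overlap by 7 bases. The mt-Atp8 gene of GRCm38 (chrM:7766-7969, plus strand, GENCODE M21) is printed with the bases that also belong to mt-Atp6 in capitals.
mt-Atp8: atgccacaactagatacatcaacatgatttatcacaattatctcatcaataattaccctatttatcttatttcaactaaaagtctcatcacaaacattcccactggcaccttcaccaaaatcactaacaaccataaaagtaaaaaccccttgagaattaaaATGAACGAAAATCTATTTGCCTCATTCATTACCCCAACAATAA

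Nuclear members carry recognition sequences of factors known to act on respiratory genes in their promoters, and the members with the palindromic NRF1 sequence, printed in capitals in the lines below, are shown because these 5 genes are set side by side over the pairs of cell types below. RefSeq promoters (GRCm38.p6, 250 bases before to 50 after the gene start) were matched for 65 of the 82 nuclear subunits, and both strands were searched. The NRF1 sequence was present in 7.69% of these 65 promoters and in 0.977% of all 27025 promoters of the same length. The GABP sequence CCGGAAGT was present in 7.69% against 4.00%, the YY1 sequence AAGATGGC in 12.3% against 2.88%, and the hypoxia response core ACGTG in 23.1% against 19.7%. A match describes these letters only. The stretches around the NRF1 sequence (in capitals) are given on the strand of the gene for Atp5g2 (chr15:102671060-102671109, minus), Atp5k (chr5:108434420-108434469, minus), Cox6a1 (chr5:115349091-115349140, minus), Ndufa11 (chr17:56717682-56717731, plus) and Uqcrc1 (chr9:108936658-108936697, plus).
Atp5g2: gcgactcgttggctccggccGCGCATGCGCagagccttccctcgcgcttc
Atp5k: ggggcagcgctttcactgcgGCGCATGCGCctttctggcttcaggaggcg
Cox6a1: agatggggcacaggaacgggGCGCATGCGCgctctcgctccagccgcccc
Ndufa11: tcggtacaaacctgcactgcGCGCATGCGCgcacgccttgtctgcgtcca
Uqcrc1: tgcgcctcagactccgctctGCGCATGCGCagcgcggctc

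Whole lungs were taken from 4 female FVB/NJ mice of the MMTV-PyMT line, all of which carry the polyoma middle T antigen under the mouse mammary tumour virus promoter, a model of spontaneous mammary cancer that can spread to the lung. From 8 weeks of age, 2 mice carried a placebo pellet and 2 a pellet with 5 mg tamoxifen released over 60 days, and lungs were taken 5 weeks later, at 13 weeks. Tamoxifen is a drug that binds the oestrogen receptor. Perfused lungs were digested with enzymes, and each mouse gave 1 library of 5′ single-cell RNA sequencing in droplets, so the mouse is the replicate (n = 2 per group). For tamoxifen against placebo, p-values measure the spread between mice within the groups. For pairs of cell types, they measure the spread of the difference within a mouse over all 4 mice. Values per mouse are given in the order placebo 1, placebo 2, tamoxifen 1, tamoxifen 2.

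The libraries held 7272 to 10168 barcodes and 32646505 to 37285982 UMIs, that is, counted molecules. Cell types were named from lists of marker genes, none of them a member, and 5941 to 6595 cells per mouse were kept, with 16 types reaching 20 cells in every mouse. Names such as neutrophil-like mean cells that carry those markers. The genes leading each of the 16 types included at least 2 of its own markers, which is no check of identity because the markers defined the cells. Markers of other lists also led: Ear2 and Chil3 in alveolar macrophage-like, Ly6d in B cell-like and Actc1 in pericyte or smooth muscle-like cells. Neutrophil-like cells were the most numerous with 12794 cells, followed by T cell-like with 3484, and the smallest of the 16 was the NK cell-like type with 143. Each pair of libraries shared 77 to 128 barcodes, at most 1.43% of the smaller library. Mitochondrially encoded members, which are also all the mitochondrial genes in the tables, made up 1.18%, 0.716%, 1.15% and 1.04% of the UMIs of kept cells. The 15% limit on mitochondrial UMIs removed 14 to 28 barcodes per mouse.

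The summed level of the 2 genomes' members was read as the percentage of a cell type's UMIs in each mouse. Alveolar type 2-like cells, the surfactant-secreting epithelium, had the highest mitochondrially encoded share, with 3.00%, 2.88%, 3.14% and 3.26%. Neutrophil-like cells had the lowest, with 0.228%, 0.241%, 0.255% and 0.307%. In these pooled shares the 4 mice of each of these types lay apart from those of every other type. The next highest, pericyte or smooth muscle-like cells, reached 2.24%, and the lowest club or secretory-like value was 0.314%. Counting error alone put that value, from placebo 2, between 0.285% and 0.345%, a range that includes 0.307%. Medians over single cells reversed this low end in each mouse. They were 0.071%, 0.130%, 0.0964% and 0.128% in neutrophil-like cells. In club or secretory-like cells they were 0.0591%, 0%, 0.0274% and 0%. The lowest rank of neutrophil-like cells therefore holds for pooled UMIs only. Mean shares in between were 2.10% ± 0.11 (SD, n = 4 mice, here and for the following types) in pericyte or smooth muscle-like, 1.98% ± 0.15 in mesothelial-like, 1.81% ± 0.090 in B cell-like, 1.73% ± 0.071 in T cell-like and 1.71% ± 0.19 in endothelial-like cells. They were 1.38% ± 0.074 in alveolar fibroblast-like, 1.31% ± 0.13 in adventitial fibroblast-like, 1.27% ± 0.079 in interstitial macrophage-like and 1.21% ± 0.088 in alveolar macrophage-like cells, and 0.890% to 1.09% in the dendritic, NK, monocyte and club or secretory-like types. Types next to each other in this order overlapped over the mice in 12 of 15 cases; the exceptions were the step below alveolar type 2-like, the step from endothelial-like to alveolar fibroblast-like and the step down to neutrophil-like cells.

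The nuclear-encoded subunits gave another order. Alveolar macrophage-like cells had the highest share, with 3.39%, 3.23%, 3.22% and 3.31%, above the highest value of pericyte or smooth muscle-like cells (2.81%). Mesothelial-like cells followed at 2.62% ± 0.051 (SD, n = 4), classical monocyte-like at 2.20% ± 0.067 and NK cell-like at 2.20% ± 0.082. Alveolar type 2-like cells, first for the mitochondrial genome, stood in the middle at 1.96% ± 0.083. Neutrophil-like cells were again lowest, with 0.533%, 0.563%, 0.525% and 0.572%, below the lowest B cell-like value of 1.44%. Neighbouring types overlapped in 11 of 15 cases. The 8 assembly factors together never exceeded 0.032% in any mouse of the 16 types. Cardiac muscle-like cells, outside the 16 with 2, 4, 2 and 9 cells, had nuclear subunit shares of 16.1%, 13.1%, 17.0% and 16.4%.

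The ratio of mitochondrially to nuclear-encoded UMIs therefore differed between types. Among the 16 types it was highest in alveolar type 2-like cells at 1.54, 1.51, 1.65 and 1.57, which lay above all B cell-like values (1.28, 1.31, 1.15 and 1.02). Its mean over the mice was lowest in alveolar macrophage-like cells, with 0.388, 0.386, 0.355 and 0.342. These did not overlap with neutrophil-like cells, the next by mean (0.428, 0.428, 0.486 and 0.536). In single mice classical monocyte-like cells were lower in placebo 1 (0.371), and club or secretory-like cells in placebo 2 (0.127) and tamoxifen 2 (0.308). Outside the 16 types, cardiac muscle-like cells had ratios of 0.113, 0.00388, 0.0983 and 0.0584. Across the means of the 16 types, which share libraries, the 2 shares had a Pearson r of 0.364 and a Spearman rho of 0.291, and 0.0624 and 0.139 over the 15 types without neutrophil-like cells.

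**Figure D1:**
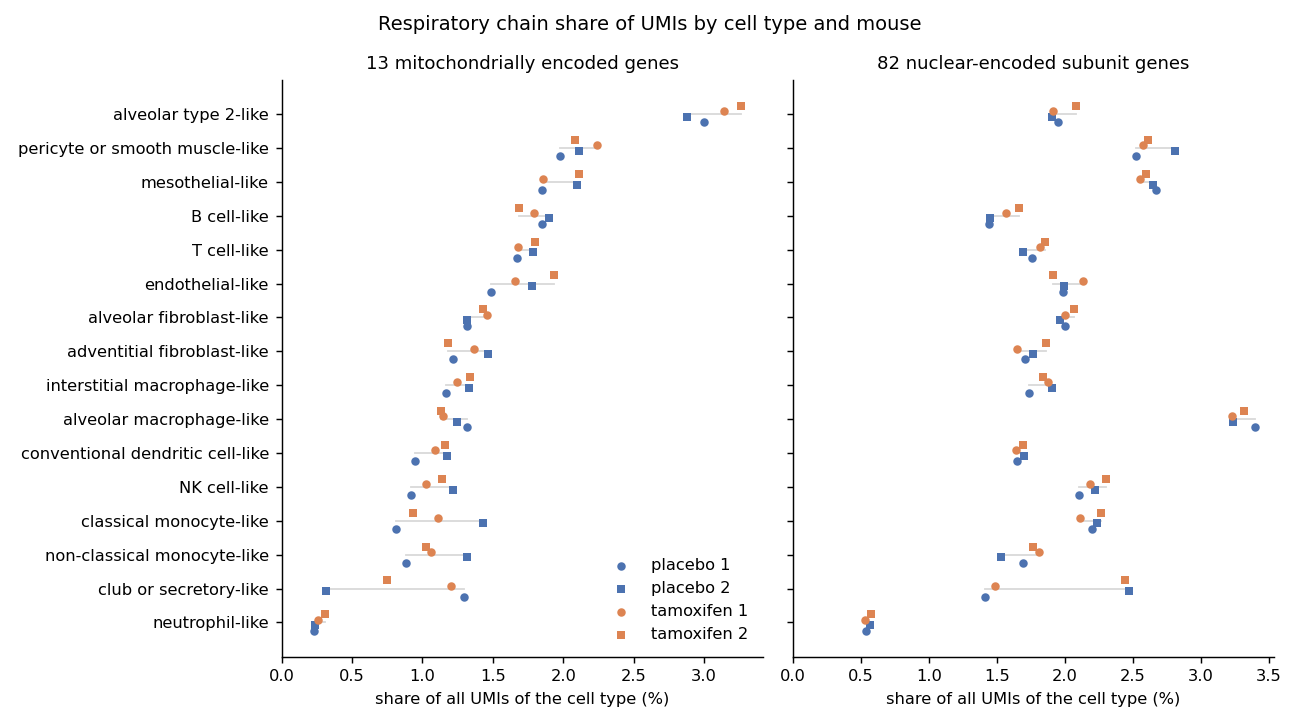
Share of UMIs from the 13 mitochondrially encoded members (left, percent) and from the 82 nuclear-encoded subunits (right, percent) in 16 cell types, 1 point per mouse (circle replicate 1, square replicate 2; blue placebo, orange tamoxifen). Alveolar type 2-like cells lead on the left at 2.88% to 3.26%, alveolar macrophage-like cells on the right at 3.22% to 3.39%, and neutrophil-like cells are lowest on both.

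Gene by gene, all 13 mitochondrially encoded members and 72 of the 82 nuclear subunits had their lowest mean level (CPM, a gene's UMIs scaled to the same total for every mouse and type) in neutrophil-like cells. The 10 exceptions were Cox4i2, Cox6a2, Cox6b2, Cox7a1, Cox7b2, Cox8b, Cox8c and Ndufa4l2, together with Ndufa8 and Ndufb9, both accessory subunits of complex I. The highest mean level was in alveolar type 2-like cells for 11 of the 13 mitochondrial genes and in pericyte or smooth muscle-like cells for mt-Atp8 and mt-Nd4l. Of the nuclear subunits, 35 were highest in alveolar macrophage-like, 17 in pericyte or smooth muscle-like, 11 in mesothelial-like and 5 in NK cell-like cells.

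The make-up of the chain also varied. Complex IV supplied 34.3% ± 0.38 (SD, n = 4) of the nuclear subunit UMIs of neutrophil-like cells and 22.7% to 27.5% (type means) elsewhere among the 16 types. Complex I supplied 26.9% ± 0.25 there and 28.7% to 36.6% elsewhere, and complex III 6.87% ± 0.21 against 8.28% to 11.8%. Among the mitochondrial genes, mt-Co1, the catalytic subunit of complex IV, made up 13.8%, 12.3%, 14.8% and 14.2% of the mitochondrial UMIs of endothelial-like cells and 15.4%, 14.04%, 15.9% and 15.4% of those of pericyte or smooth muscle-like cells, below every value of the other 14 types (17.2% to 30.2%). The mt-Co1 share in neutrophil-like cells was 25.5%, 30.2%, 28.3% and 25.9%.

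The 4 pairs of related or neighbouring types chosen for comparison were tested within the mice with edgeR's quasi-likelihood test (mouse as a block, Benjamini-Hochberg adjustment over all genes tested, threshold 0.05). Levels in these comparisons are CPM after TMM scaling, a scaling that centres the fold changes of most genes on 0. Plain UMI totals, added after seeing the data, move the median log2 fold change of all genes by less than 0.1 in the first pair, to -0.46 in the second, to -1.27 in the third and to -1.13 in the fourth. Differences are therefore relative to the other genes of the pair, and the plain-total counts stand beside the main counts. A filter on low counts left 4, 8, 9 and 12 members untested in the 4 pairs, mostly tissue-restricted forms and assembly factors.

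In pericyte or smooth muscle-like cells, the contractile cells around vessels and airways, 61 of the 99 members tested were higher and 2 lower than in alveolar fibroblast-like cells, while 17.9% of all genes tested were higher and 20.2% lower (38.1% in all). The mitochondrially encoded members were higher in 11 of 13 cases (median log2 fold change 0.81), and the nuclear subunits in 50 of 78 (median 0.37). None of the 8 assembly factors passed. By complex, the nuclear subunits were higher in 21 of 39 for complex I, 8 of 8 for complex III, 11 of 14 for complex IV and 10 of 17 for complex V. Counts were 61 and 2 with plain totals too, where 17.4% of all genes tested were higher and 20.4% lower.

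The largest difference of any member was that of Cox4i2 (chr2:152754173-152765037, plus strand, GRCm38), the alternative form of the subunit Cox4. Its scaled level was 345, 329, 317 and 509 in pericyte or smooth muscle-like cells and 2.19, 1.82, 0.776 and 3.18 in alveolar fibroblast-like cells. Every value of the first type lay far above every value of the second, and the log2 fold change was 7.42 ± 0.18 (SE, adjusted p = 5.91e-14). Ndufa4l2 (chr10:127514967-127517154, plus strand), a paralog of the oxidase-associated subunit Ndufa4 known as a target of the hypoxia factor HIF-1, had levels of 148, 115, 101 and 217 against 0.731, 1.22, 2.33 and 3.18. Its log2 fold change was 6.38 ± 0.25 (adjusted p = 4.94e-12). The common forms moved little or less: Cox4i1 had a log2 fold change of 0.60 (adjusted p = 5.38e-05), and Ndufa4 one of 0.14 that did not pass (adjusted p = 0.308).

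Next among the higher members were mt-Nd4l at 1.22, mt-Nd3 at 0.92, mt-Cytb at 0.88, mt-Atp8 and mt-Nd4 at 0.86, mt-Nd1 at 0.84, and mt-Atp6 and Ndufa12 at 0.81 on the log2 scale. The level of mt-Nd4l, a small membrane subunit of complex I, was 1903, 2204, 2287 and 1754 against 793, 901, 1012 and 789.6. The level of mt-Co1 was 3009, 2958, 3613 and 3486 against 3408, 2808, 3568 and 3450, overlapping over the mice, with a log2 fold change of -0.02 (adjusted p = 0.896). Besides mt-Co1, only mt-Nd6 failed to pass among the 13 (0.21, adjusted p = 0.592).

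Both members that were lower in pericyte or smooth muscle-like cells belong to complex IV. Cox6b2, known in the mouse as the testis form of Cox6b, had 13.7, 6.59, 9.89 and 28.3 against 135, 145, 159 and 157 in alveolar fibroblast-like cells (log2 fold change -3.39 ± 0.22, adjusted p = 2.10e-09). Cox8b, the muscle form of Cox8, had 0, 6.59, 0 and 3.14 against 30.0, 28.0, 27.9 and 24.8 (log2 fold change -4.28 ± 0.57, adjusted p = 1.16e-05). The Cox8b value rests on 3 UMIs in pericyte or smooth muscle-like cells against 203. This is a 21.1-fold ratio of CPM over plain UMI totals, with an exact 95% counting interval from 7.13 to 103. In pericyte or smooth muscle-like cells the cardiac marker list, 15 genes of which 7 to 10 were detected per mouse, summed to 0.216% to 0.709% of UMIs with Mybpc3, Nppa and Sln at 0, and the heart form Cox6a2 had 0 UMIs there.

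**Figure D2:**
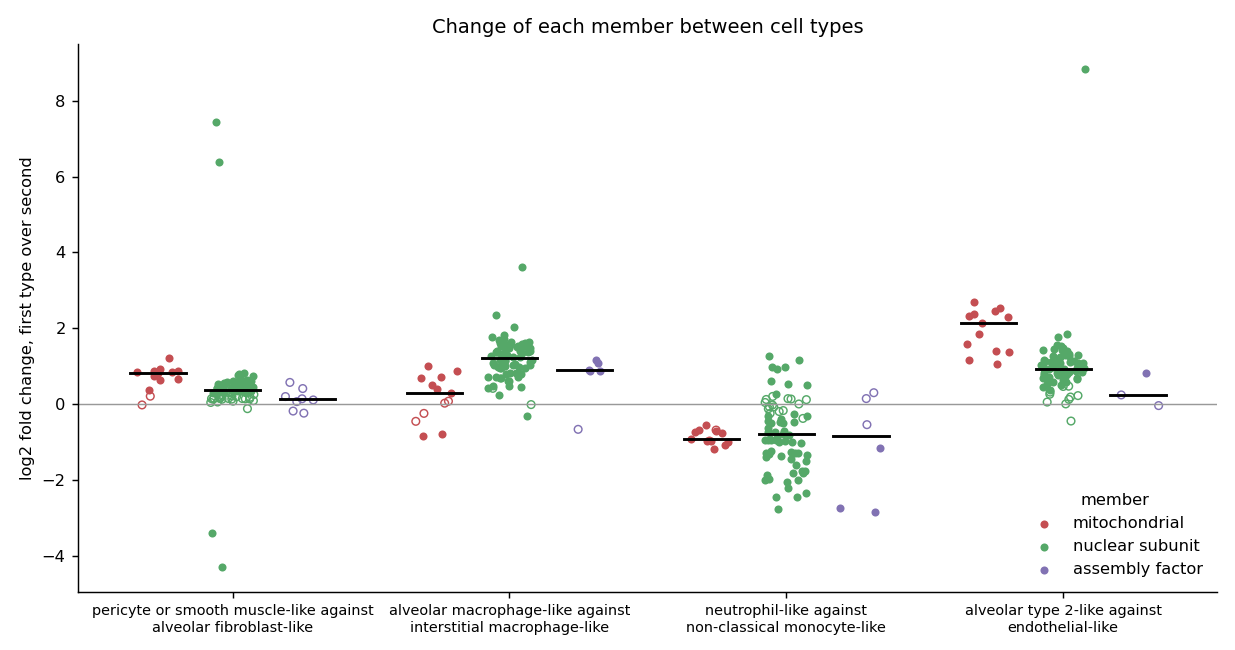
Log2 fold change (TMM scale) of each member tested in the 4 pairs of cell types, split into mitochondrially encoded, nuclear subunits and assembly factors; filled points passed an adjusted p of 0.05 in edgeR and bars are medians. Mitochondrial medians were 0.81, 0.30, -0.90 and 2.13, and nuclear subunit medians 0.37, 1.23, -0.80 and 0.94, in the order of the panels.

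Alveolar macrophages are long-lived, lipid-clearing cells of the airspace, and interstitial macrophages live in the tissue around it. In alveolar macrophage-like cells 85 of the 95 members tested were higher and 3 lower than in interstitial macrophage-like cells, against 28.9% higher and 29.6% lower of all genes tested (58.5% in all). The nuclear subunits were higher in 73 of 76 cases with a median log2 fold change of 1.23, including 36 of 38 of complex I, 7 of 8 of complex III, 13 of 13 of complex IV and 17 of 17 of complex V, and 5 of 6 assembly factors were higher. The mitochondrial genes were higher in 7 of 13 and lower in 2, with a median of 0.30. With plain totals 73 members were higher and 8 lower, against 16.9% and 47.1% of all genes tested: nuclear subunits 66 and 1 (median 0.82), mitochondrial genes 4 and 6 (median -0.11).

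Cox6b2 led, with levels of 207, 184, 180.2 and 157 against 15.02, 13.997, 9.61 and 19.5 and a log2 fold change of 3.61 ± 0.18 (SE, adjusted p = 2.27e-11). It was followed by Ndufb1-ps at 2.36, which the annotation lists as a noncoding transcript, and by Cox7a1, the muscle form of Cox7a, at 2.04 ± 0.31 (adjusted p = 2.40e-05) with 18.2, 24.8, 28.8 and 31.5 against 7.11, 6.12, 6.18 and 5.41. All 4 mice of the alveolar type lay above all 4 of the interstitial type for both Cox genes. The other members among the 10 largest were Atp5e at 1.81, Atp5md at 1.77, Atp5l at 1.71, Uqcrq at 1.69, Ndufa3 at 1.64, Ndufc1 at 1.63, and Atp5h at 1.62. The level of Uqcrq, a small subunit of complex III, was 653, 648.5, 645 and 686 against 189.7, 188, 237 and 206.

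The 3 lower members were mt-Nd4l at -0.85 (adjusted p = 4.33e-06), mt-Atp8 at -0.79 (adjusted p = 0.000107) and Uqcrc1, a core subunit of complex III, at -0.32 (adjusted p = 0.0387). The genes whose frames overlap the mitochondrial ones of these, mt-Nd4 (0.89) and mt-Atp6 (0.03), were not lower. How reads were divided between overlapping neighbours was not tested. The level of mt-Atp8 was 329, 175, 209 and 134 in alveolar macrophage-like cells and 372, 376, 406 and 271 in interstitial macrophage-like cells, lower in each of the 4 mice. At the other end of the mitochondrial genes, mt-Nd1 had 802, 929, 813 and 895 against 356, 485, 412 and 474 (log2 fold change 1.00 ± 0.095, adjusted p = 9.41e-08), mt-Nd4 0.89, mt-Co3 0.71, mt-Nd3 0.70, mt-Co1 0.50, mt-Nd2 0.39 and mt-Co2 0.30. With plain totals mt-Nd2 and mt-Co2 turned to -0.02 and -0.11. The differences of mt-Atp6 (0.03), mt-Cytb (0.08), mt-Nd5 (-0.24) and mt-Nd6 (-0.45) did not pass.

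Neutrophils are short-lived cells known for relying on glycolysis, and non-classical monocytes patrol the vessel wall. In neutrophil-like cells 66 of the 94 members tested were lower and 9 higher than in non-classical monocyte-like cells, in a comparison where 38.1% of all genes tested were lower and 38.4% higher (76.5% in all). The mitochondrial genes were lower in 12 of 13 cases (median log2 fold change -0.90), the nuclear subunits in 51 of 75 with 9 higher (median -0.80), and the assembly factors in 3 of 6. With plain totals 91 members were lower and 0 higher at the adjusted threshold, against 66.8% and 16.4% of all genes tested, since the 9 higher members had values from -0.99 to 0.02 there. The complexes differed in their counts: complex III subunits were lower in 8 of 8, complex I in 26 of 38 with 4 higher, complex V in 12 of 17 with 2 higher, and complex IV in 5 of 12 with 3 higher (median -0.06).

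The lowest were Ndufaf6 at -2.84, Ndufc2 at -2.75, Ndufaf4 at -2.75, Ndufa9 at -2.45, Ndufa5 at -2.44, Ndufa11 at -2.35, Atp5g2 at -2.22, Atp5o at -2.04, Ndufb5 at -2.00 and Atp5g1 at -1.99 on the log2 scale. Ndufc2, a membrane subunit of complex I, had scaled levels of 8.97, 10.8, 12.2 and 12.1 in neutrophil-like cells and 58.4, 60.1, 90.2 and 90.0 in non-classical monocyte-like cells. The c-ring of complex V is encoded by 3 genes for the same mature protein, and all 3 were lower: Atp5g2 at -2.22 ± 0.10 (SE, adjusted p = 1.43e-12), Atp5g1 at -1.99 ± 0.13 (adjusted p = 1.52e-10) and Atp5g3 at -1.43 ± 0.10 (adjusted p = 5.86e-10). The level of Atp5g2 was 64.0, 67.3, 61.7 and 70.5 against 283, 289, 304 and 349.6, with no overlap. The mitochondrial genes ranged from -0.54 for mt-Co1 to -1.17 for mt-Nd1, and mt-Nd6 at -0.68 did not pass (adjusted p = 0.0542).

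The 9 higher members were Ndufa8 at 1.28, Cox8a at 1.17, Ndufb9 and Cox6b2 at 0.99, Ndufa7 at 0.94, Atp5l at 0.61, Atp5f1 at 0.53, Ndufs5 at 0.52 and Cox5b at 0.28. Under plain totals all but Ndufa8 (0.02) turned negative. Cox8a, the common form of Cox8, had 922, 896, 892 and 942 in neutrophil-like cells against 404, 312, 464 and 449 (1.17 ± 0.10, adjusted p = 1.45e-08). Cox6a1, Cox6b1 and Cox7a2 did not pass (-0.24, 0.13 and 0.15), while Cox4i1 was lower at -0.50 (adjusted p = 0.000153). Within neutrophil-like cells the pooled mitochondrial share lay above the upper quartile of single cells in each mouse (0.158%, 0.222%, 0.194% and 0.257%).

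In alveolar type 2-like cells 79 of the 91 members tested were higher and 0 lower than in endothelial-like cells, against 25.5% higher and 28.2% lower of all genes tested (53.6% in all). All 13 mitochondrial genes were higher (median log2 fold change 2.13), as were 65 of 75 nuclear subunits (median 0.94). Club or secretory markers took 8.72%, 19.0%, 12.6% and 12.3% of the UMIs of these cells, and their part was not tested. With plain totals the picture split by genome: 9 of 13 mitochondrial genes were higher and 0 lower (median 1.05), whereas 10 of 75 nuclear subunits were higher and 23 lower (median -0.14). Of all genes tested, 10.3% were higher and 71.5% lower there. The largest mitochondrial differences were those of mt-Co1 at 2.68, mt-Nd4 at 2.53, mt-Nd1 at 2.46, mt-Nd5 at 2.37, mt-Co3 at 2.32, mt-Nd2 at 2.29 and mt-Nd3 at 2.13, and the smallest that of mt-Atp8 at 1.06, which turned to -0.02 with plain totals. The scaled level of mt-Co1 was 10410.4, 10169.6, 11172 and 12120.3 against 1450.4, 1617, 1779.6 and 2014, so that the lowest alveolar type 2-like value still lay far above every endothelial-like one. Among nuclear genes, Cox6a2 led at 8.84, and Atp5e (1.86) and Ndufc2 (1.77) followed.

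The Cox6a2 fold rests on 155 UMIs in alveolar type 2-like cells against 1 in endothelial-like cells, so the fitted value depends on the prior count. The ratio of CPM over plain UMI totals was 396, with an exact 95% counting interval from 70.1 to 15756. Its scaled level was 167, 165, 118 and 104 in alveolar type 2-like cells. The common form Cox6a1 had 371, 361, 337 and 328 against 323, 365, 330.3 and 329, overlapping over the mice, with a log2 fold change of 0.06 (adjusted p = 0.743).

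The 5 members with the NRF1 sequence did not move alike. In the order of the 4 pairs, the log2 fold changes were 0.32, 0.62, -2.22 and 1.01 for Atp5g2, and 0.47, 1.29, -0.80 and 0.99 for Atp5k. They were 0.35, 1.59, -2.35 and 0.70 for Ndufa11, 0.77, 1.04, -0.24 and 0.06 for Cox6a1 (the last 2 not passing), and 0.62, -0.32, -0.98 and -0.44 for Uqcrc1 (the last not passing). These values are on the TMM scale, and with plain totals that of Atp5g2 in the fourth pair turned slightly negative.

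The tissue-restricted forms were followed over all types, as CPM over plain UMI totals. Cox4i2 was highest in pericyte or smooth muscle-like cells at 348, 330.2, 311 and 468, where it made up 20.4% to 27% of the UMIs of Cox4i1 and Cox4i2 together. Endothelial-like cells had 3.97, 7.58, 31.4 and 14.5, and neutrophil-like cells at most 0.545. Ndufa4l2 had 149.7, 116, 98.7 and 199 in pericyte or smooth muscle-like cells and a second site in adventitial fibroblast-like cells at 64.6, 61.2, 29.2 and 47.3, where Cox4i2 stayed between 2.93 and 8.74. Both genes were thus shared by pericyte or smooth muscle-like cells, and only Ndufa4l2 was also high in adventitial fibroblast-like cells.

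Cox6a2 had 3 sites. In cardiac muscle-like cells, 17 cells in all, it reached 6109.98 to 10358 CPM and 96.0% to 100% of the UMIs of Cox6a1 and Cox6a2. In plasmacytoid dendritic cell-like cells (106 cells) it had 845, 609.8, 855 and 708, or 63.9% to 76.8% of the combined UMIs. In alveolar type 2-like cells it had 118, 101.1, 81.2 and 67.5, or 24.1% to 31.3%. Pericyte or smooth muscle-like, adventitial fibroblast-like and endothelial-like cells held 0, 0 and 1 UMI. Cox8b and Cox7a1 were likewise highest in cardiac muscle-like cells, at 764 to 1576 and 676 to 1630.2. Away from the heart they parted: Cox8b was seen in alveolar fibroblast-like cells at 24.4 to 29.6 with 0 UMIs in adventitial fibroblast-like, mesothelial-like and both macrophage-like types, and Cox7a1 in alveolar macrophage-like cells at 16.3 to 26.2. The cardiac marker list summed to at most 0.00148% of the UMIs of alveolar fibroblast-like cells, with Ckm, Mybpc3, Myoz2, Nppa, Ryr2, Sln and Ttn at 0. Cox6b2 had 131 to 185 in alveolar macrophage-like and 134 to 159.9 in alveolar fibroblast-like cells, and 0 UMIs in cardiac muscle-like cells; erythroid-like cells, too few to be compared, had 0, 207.5, 325 and 442.

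**Figure D3:**
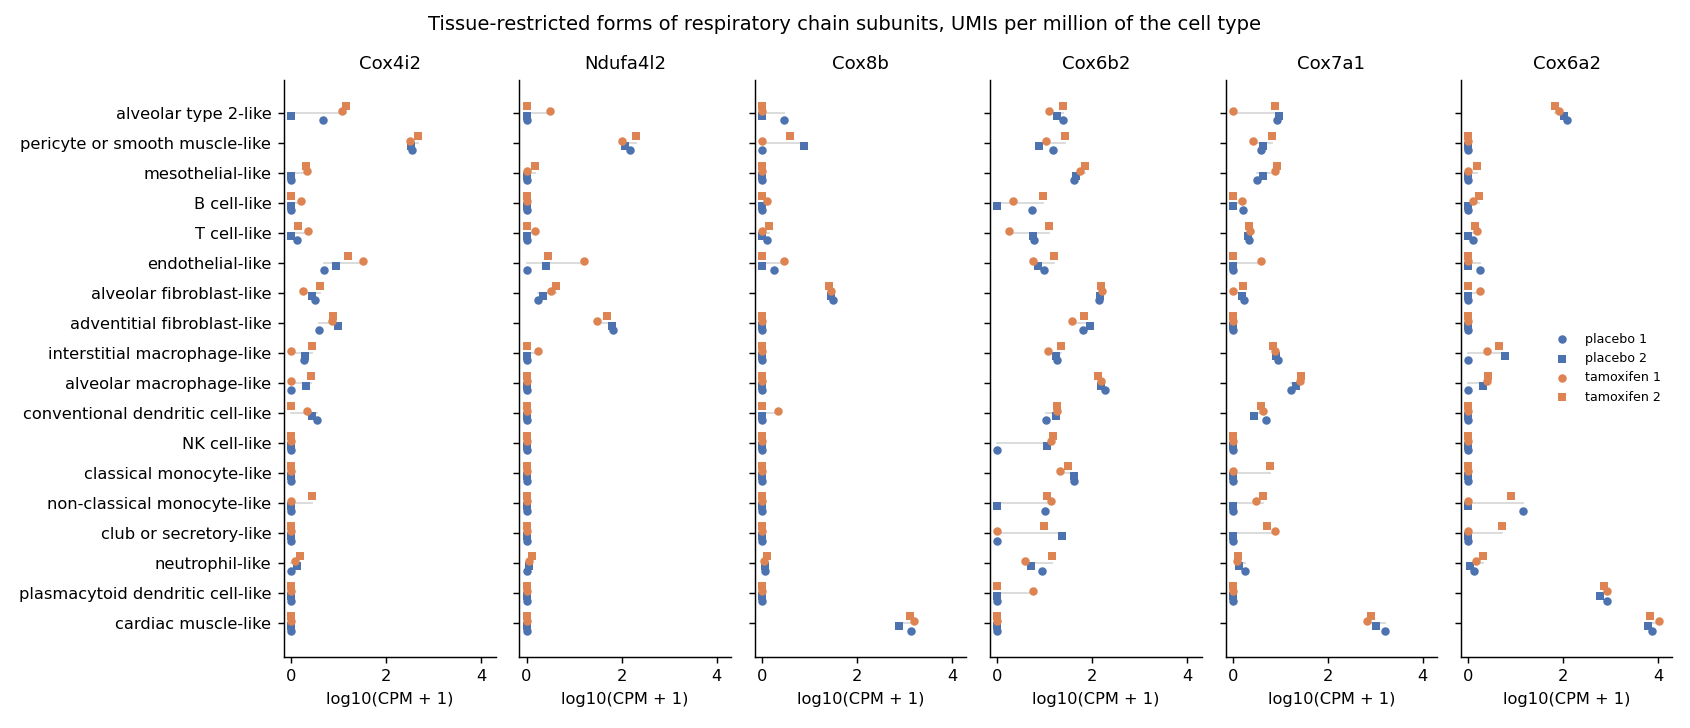
Level of 6 tissue-restricted subunit forms, as log10 of (1 + CPM), in the 16 compared types and in plasmacytoid dendritic cell-like and cardiac muscle-like cells, 1 point per mouse. Cox4i2 peaks in pericyte or smooth muscle-like cells (311 to 468 CPM) and Cox6a2 in cardiac muscle-like, plasmacytoid dendritic cell-like and alveolar type 2-like cells.

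Genes that feed, assemble or regulate the chain were taken from 5 lists, whose counts are to be read against the shares of all genes called in the same pair. In the first pair 17.9% of all genes were higher and 20.2% lower, in the second 28.9% and 29.6%, in the third 38.4% and 38.1%, and in the fourth 25.5% and 28.2%. With plain totals the shares were 17.4% and 20.4%, 16.9% and 47.1%, 16.4% and 66.8%, and 10.3% and 71.5%. Counts of a few genes near these shares, such as 4 of 12 cycle genes higher or 3 of 8 regulators lower in the second pair, or 6 of 13 oxidase assembly genes lower in the third, are no result about the list. In pericyte or smooth muscle-like against alveolar fibroblast-like cells the tricarboxylic acid cycle was higher in 7 of 12 genes and lower in 0 (median log2 fold change 0.38), while none of 9 genes of mitochondrial DNA upkeep and none of 8 nuclear regulators of respiration passed, 1 of 10 genes of complex II and the electron carriers was higher (Sdhc), and 2 of 13 oxidase assembly genes were lower (Sco2 and Cox17). In alveolar against interstitial macrophage-like cells the carriers were higher in 6 of 10 (Etfb 2.44, Cycs 1.49) and oxidase assembly genes in 9 of 13 (Cox17, the copper chaperone, 2.05), and the cycle in 4 of 12 with Fh1 lower at -0.59. Genes of mitochondrial DNA upkeep were higher in 3 of 7, with Tfb2m, a mitochondrial transcription factor, at 1.63. The regulators were lower in 3 of 8 and higher in 0: Gabpb1 at -1.40, Creb1 at -0.68 and Yy1 at -0.34. With plain totals the counts there were 5 higher and 1 lower of 10, 5 and 0 of 13, 2 and 3 of 12, 2 and 2 of 7, and 0 and 3 of 8.

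In neutrophil-like against non-classical monocyte-like cells the regulators were higher in 4 of 7 (Gabpb1 3.53, Nrf1 1.13, Creb1 0.98, Yy1 0.95), but with plain totals only Gabpb1 was higher and 4 were lower. Genes of mitochondrial DNA upkeep were lower in 7 of 10, among them Lrpprc at -3.14, Tfam, which packages mitochondrial DNA, at -2.60 and Tfb2m at -2.46, and in 9 of 10 with plain totals. Cycle genes were lower in 9 of 12 with Mdh2 (0.93) and Cs (0.69) higher, carriers lower in 6 of 9 with Sdhd (1.43) and Sdha (0.60) higher, and oxidase assembly genes lower in 6 of 13 and higher in 4. With plain totals these were 12 of 12, 8 of 9 and 10 of 13 lower, and Cox17 alone was higher. In alveolar type 2-like against endothelial-like cells carriers were higher in 6 of 9 (Etfb 2.64), the cycle in 4 of 12, DNA upkeep in 2 of 4, regulators in 0 of 6 and oxidase assembly in 6 of 10, with 0 lower in each. With plain totals the lower genes numbered 5, 8, 2, 5 and 2 in the same order and the higher ones 1, 1, 0, 0 and 0.

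Tamoxifen was compared with placebo in each of the 16 types. No member passed the adjusted threshold of edgeR in any of 1464 tests, and DESeq2 also called 0; over all genes and types 0.0221% of 104178 tests passed. By type this share was 0.0101% in T cell-like, 0.0347% in B cell-like, 0.101% in classical monocyte-like, 0.0294% in conventional dendritic cell-like, 0.0103% in alveolar fibroblast-like, 0.177% in pericyte or smooth muscle-like and 0.0241% in mesothelial-like cells, and 0 in the other 9 types. At an unadjusted p under 0.05 there were 36 member tests, 2.46%, against 3.92% of all tests. The smallest adjusted p of a member was 0.868. None of the 5 lists had a gene past the threshold. Fits that leave out 1 mouse called 0 to 5 members, so the 0 is not the same as equal levels. With 2 mice against 2, an exact two-sided permutation test of a single share cannot go below 0.333.

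Some shares were apart between the groups without a test. When the groups do not differ, 2 mice against 2 still lie apart, in either direction, with a probability of 0.333 per type. The mitochondrially encoded share was higher in both tamoxifen mice in neutrophil-like, alveolar fibroblast-like (1.32%, 1.32%, 1.46% and 1.43%) and alveolar type 2-like cells, lower in both in B cell-like (1.85%, 1.90%, 1.79% and 1.69%) and alveolar macrophage-like cells (1.32%, 1.25%, 1.14% and 1.13%), and overlapped in 11 types. The nuclear subunit share was higher in T cell-like (1.76%, 1.69%, 1.81% and 1.85%), B cell-like (1.44%, 1.44%, 1.56% and 1.66%) and non-classical monocyte-like cells (1.69%, 1.53%, 1.81% and 1.77%), lower in mesothelial-like cells (2.67%, 2.64%, 2.55% and 2.60%), and overlapped in 12 types. B cell-like cells were thus the type in which both shares separated, in opposite directions. Other library features also lay apart by group in some of these types. Malat1, a nuclear RNA, took 1.24%, 1.06%, 1.02% and 0.841% of the UMIs of neutrophil-like cells and 0.732%, 0.583%, 0.527% and 0.383% of those of B cell-like cells, haemoglobin UMIs in B cell-like cells were 1.80%, 0.918%, 0.303% and 0.832%, and the median UMIs per alveolar macrophage-like cell were 2412, 2941, 2338 and 1951. In non-classical monocyte-like cells Malat1 took 0.949%, 0.858%, 0.814% and 0.650% of UMIs, and the median UMIs per cell were 2667, 3334, 3557 and 3514. The median was 3177, 3042, 3512 and 3745 in alveolar type 2-like cells. Ribosomal protein genes took a higher share in both tamoxifen mice in 5 types and a lower one in 0, with 2.44%, 2.38%, 2.59% and 2.59% in neutrophil-like, 13.8%, 13.9%, 14.6% and 15.7% in non-classical monocyte-like and 11.6%, 11.4%, 12.2% and 11.7% in alveolar fibroblast-like cells. In T cell-like and mesothelial-like cells none of these features lay apart by group. Over the 16 types the groups overlapped in 13 for Malat1, in 12 for haemoglobin, in 12 for the median UMIs and in 11 for ribosomal protein genes. The part of these features in the shares was not tested.

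In neutrophil-like cells 9 of the 13 mitochondrial genes were higher in both tamoxifen mice than in both placebo mice, against 13.1% of all genes, with a median log2 fold change of 0.37 beside 0.07 for nuclear subunits and -0.02 for all genes. The level of mt-Nd4 was 87.4, 96.6, 113 and 130.3 (log2 fold change 0.40, unadjusted p = 0.0199) and that of mt-Nd1 67.9, 56.9, 75.1 and 98.8 (0.49, unadjusted p = 0.0277), both with an adjusted p of 1.00. The groups did not overlap for either gene, with tamoxifen 2 highest. For mt-Co1 the levels were 573, 708, 735 and 819.6, and placebo 2 lay closer to tamoxifen 1 than to placebo 1. The pattern was not particular to neutrophil-like cells and did not hold in every type. In pericyte or smooth muscle-like cells 8 of 13 mitochondrial genes were higher in both tamoxifen mice, beside 1097 of all 6214 genes (mitochondrial median 0.16). In alveolar fibroblast-like cells 6 of 13 were, beside 1524 of 9736 (median 0.10). In alveolar macrophage-like cells 0 of 13 were higher and 3 lower, beside 900 and 930 of all 5635 genes. The mitochondrial median was negative there (-0.16) and in adventitial fibroblast-like (-0.12), classical monocyte-like (-0.10), non-classical monocyte-like (-0.04) and B cell-like cells (-0.02). It was positive in the other types.

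In B cell-like cells 50 of 74 nuclear subunits were higher in both tamoxifen mice, against 18.2% of all genes, with a median of 0.22, while the mitochondrial genes had a median of -0.02. Atp5k had 56.5, 61.1, 89.4 and 86.4 (log2 fold change 0.59, unadjusted p = 0.00885, adjusted p = 0.868) and Atp5mpl 150.5, 172, 218 and 228 (0.48, adjusted p = 0.885), both small membrane subunits of complex V. Of the 13 mitochondrial genes 2 were lower in both tamoxifen mice and 1 was higher, beside 1566 and 1569 of all 8640 genes. Among the lower ones was mt-Cytb, with 2175, 2119, 1872 and 1715. The count of nuclear subunits higher in both tamoxifen mice was 34 of 74 in non-classical monocyte-like cells against 16.8% of all genes. Ndufc2 had 93.4, 97.3, 143 and 143 there, and Ndufs8 70.0, 66.9, 122 and 92.1. It was 24 of 75 in T cell-like cells against 15.7%, where Ndufb2 had 74.6, 70.8, 91.8 and 88.8 and Ndufa11 106, 101, 123 and 130.1.

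For the remaining types the 2 members with the smallest unadjusted p in each are given, beginning with endothelial-like cells, where these were Cox4i2 and mt-Co1 (log2 fold change 0.33). Cox4i2 had 3.88, 7.80, 31.7 and 15.1 there (log2 fold change 2.07, unadjusted p = 0.00408, adjusted p = 0.959). Tamoxifen 1 was far above the rest. The pericyte or smooth muscle marker list, 14 genes of which 7 to 12 were detected per mouse, took 0.00634%, 0.00955%, 0.0151% and 0.00416% of the UMIs of these cells, none of the genes was at 0 in all mice, and tamoxifen 1 was highest here too. The level of Ndufa4l2 in these cells, as CPM over plain totals, was 0, 1.52, 15.2 and 1.81, again highest in tamoxifen 1, and the part of pericyte RNA in the Cox4i2 values was not tested. In NK cell-like cells Atp5f1 had 346, 286, 658 and 616 (0.99, unadjusted p = 0.00241) and Atp5h 1057, 993, 743 and 691 (-0.52). In alveolar type 2-like cells mt-Nd6 had 52.2, 90.6, 29.1 and 22.3 (-1.38, unadjusted p = 0.00488) and Atp5j 389, 466, 296 and 305 (-0.50).

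In alveolar macrophage-like cells the 2 members were mt-Atp8, with 289.7, 154, 184 and 117 (log2 fold change -0.55) and overlapping groups, and Ndufb1-ps, with 401, 535, 652 and 544 (0.35) and no overlap. In adventitial fibroblast-like cells Ndufa4l2 had 69.0, 63.2, 30.0 and 49.8 (-0.71) and Ndufs4 -0.47, and in alveolar fibroblast-like cells Ndufaf6 had 9.51, 8.50, 3.10 and 3.82 (-1.36) and Ndufv3 -0.33. In classical monocyte-like cells Atp5k had 50.5, 56.7, 119 and 98.5 (1.02) and mt-Cytb -0.58. The log2 fold changes in mesothelial-like cells were 0.81 for Ndufaf1 and 0.57 for Cox6b2, in interstitial macrophage-like cells 0.30 for Ndufb4 and 0.28 for Ndufb8, and in conventional dendritic cell-like cells 0.39 for Ndufv3 and -0.31 for Ndufs8. They were 0.24 for mt-Co1 and 0.43 for mt-Nd3 in pericyte or smooth muscle-like cells and 1.42 for mt-Nd3 and 0.76 for Ndufs5 in club or secretory-like cells, and the adjusted p of each member in this paragraph was at least 0.958.

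**Figure D4:**
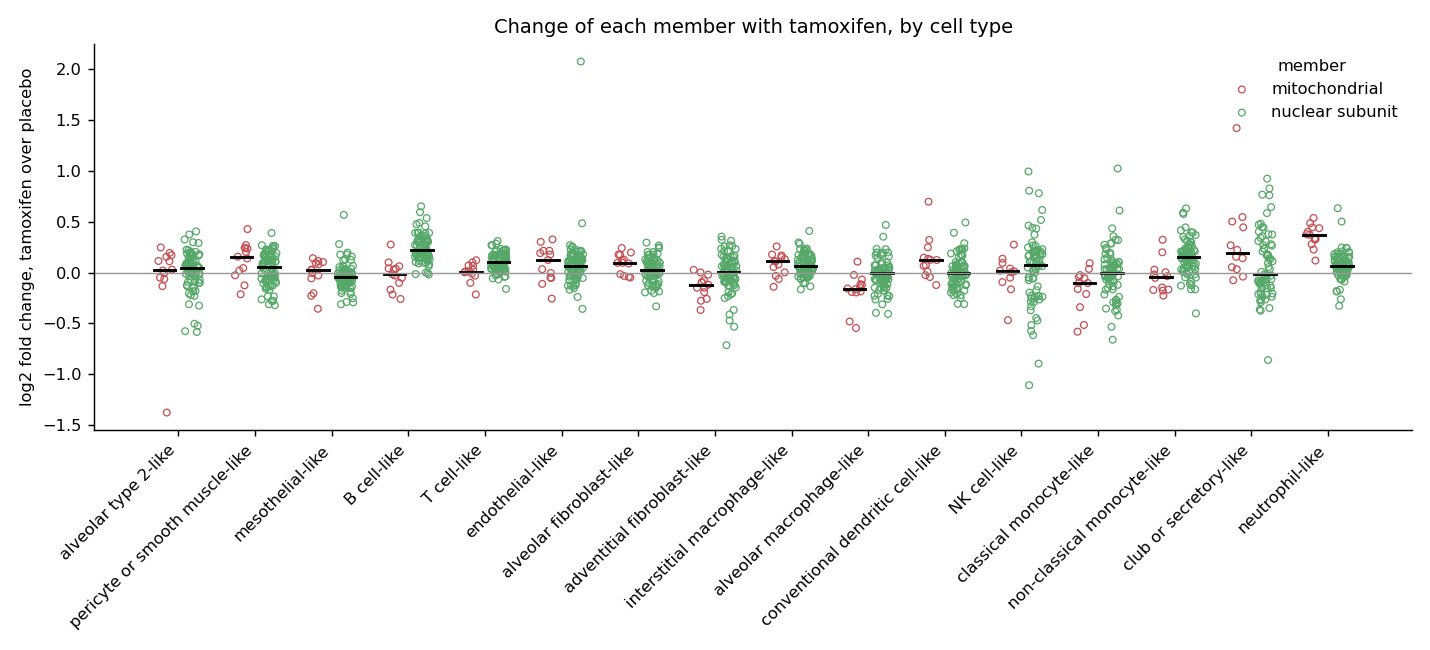
Log2 fold change, tamoxifen against placebo, of mitochondrially encoded members and nuclear subunits in 16 cell types, 1 point per member with bars at the medians. The mitochondrial median is 0.37 in neutrophil-like cells and the nuclear median 0.22 in B cell-like cells, and no point passed the adjusted threshold.

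Club or secretory-like cells differed most between mice of one group. Their mitochondrial share was 1.30%, 0.314%, 1.20% and 0.750%, and their nuclear subunit share 1.41%, 2.47%, 1.48% and 2.44%. Placebo 2 and tamoxifen 2 were low for the first and high for the second, across the groups. The pooled mitochondrial share lay above the upper quartile of single cells in each mouse (0.169%, 0.0625%, 0.289% and 0.0857%), and the median over single cells was 0.0591%, 0%, 0.0274% and 0%. The type held 20, 34, 24 and 70 cells, and Malat1 took 0.167%, 0.002%, 0.128% and 0.182% of their UMIs.

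The overlapping mt-Atp8 and mt-Atp6 reading frames shown above gave a pattern by mouse. As a share of the UMIs of both genes, mt-Atp8 had medians over the 16 types of 20.7%, 15.7%, 19.6% and 11.3%. The order placebo 1, tamoxifen 1, placebo 2, tamoxifen 2 held in 11 types, and in 4 more tamoxifen 1 was first with the rest unchanged. Placebo 1 and tamoxifen 1 lay above placebo 2 and tamoxifen 2 in all 16 types, so the groups overlapped. Alveolar macrophage-like cells had 13.9%, 7.96%, 10.7% and 6.60%, the lowest of the 16 types in placebo 1, placebo 2 and tamoxifen 1, and in tamoxifen 2 only NK cell-like cells were lower at 3.95%.

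**Figure D5:**
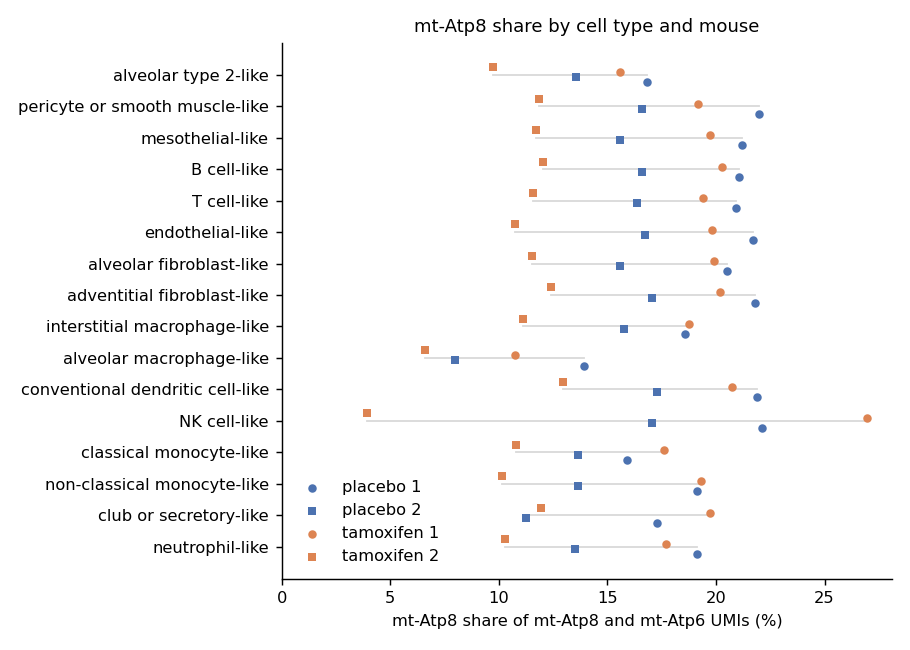
Share of mt-Atp8 in the UMIs of mt-Atp8 and mt-Atp6 (percent) in 16 cell types, 1 point per mouse (circle replicate 1, square replicate 2; blue placebo, orange tamoxifen). The replicate 1 mice lie above the replicate 2 mice in each of the 16 types, and alveolar macrophage-like cells are low at 6.60% to 13.9%.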

How the data were processed

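The deposited tables list untransformed UMI counts for each gene and barcode, made by the authors with Cell Ranger, version 5.0.0 per the file headers and version 8.0.1 with build mm10 per the submitters' processing notes; which one made them, and strand use in counting, are not given in the sources used here. Cells with at least 250 genes, at most 15% mitochondrial and at most 50% haemoglobin UMIs were considered. Each was assigned to the marker list with most genes detected, needing 3 (24 lists, 263 genes, 1 not found), without correction for list length. Cells tied between related lists were dropped (21 to 42 per mouse). Cells in which an unrelated list reached more than 1/2 of the top list's count were dropped as possible doublets (411 to 677 per mouse); 75 to 161 kept cells sat at the marker minimum. Counts were summed per mouse and type and tested with edgeR 4.0.16 in R 4.3.3 (quasi-likelihood F test, TMM, filterByExpr, Benjamini-Hochberg adjustment over all genes tested); standard errors are the fold change over the square root of F. DESeq2 1.42.0, other scalings, filters, gates and each mouse left out were alternatives. The fits were tested on simulated counts. Members and lists were chosen with earlier results of these data known. Named genes are the 13 mitochondrial genes, members with a tissue-restricted partner, up to 10 members per direction with the largest change past the threshold, and, without a call, the 2 smallest unadjusted p-values per type. Gene coordinates come from GENCODE M21 (103 of 103 matched). Intervals cover counting error only. Each mouse gave 1 library, and 8 types with under 20 cells in a mouse were not tested.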

Additional observations from a re-analysis of the deposited data

Results flagged for a closer look

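Shares of UMIs whose tamoxifen and placebo mice did not overlap are flagged because the direction was not the same in every cell type; the difference between types was not tested. For the mitochondrially encoded members the tamoxifen mean minus the placebo mean was -0.144 percentage points in alveolar macrophage-like and -0.134 in B cell-like cells. It was 0.0465 in neutrophil-like, 0.127 in alveolar fibroblast-like and 0.266 in alveolar type 2-like cells. For the nuclear-encoded subunits it was -0.0809 percentage points in mesothelial-like cells, 0.109 in T cell-like, 0.170 in B cell-like and 0.176 in non-classical monocyte-like cells. Each value rests on 2 mice against 2, which lie apart with a probability of 0.333 per type when the groups do not differ.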

How the results depend on the processing

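The count of members called between tamoxifen and placebo was 0 with edgeR and ranged from 0 to 5 with 1 mouse left out. Without placebo 1 these were mt-Cytb in classical monocyte-like (-1.001), mt-Atp8 (2.46), mt-Nd2 (2.64) and mt-Nd5 (2.85) in club or secretory-like and Ndufaf1 in mesothelial-like cells (1.90); without placebo 2, mt-Atp8 in alveolar macrophage-like (-0.94) and mt-Nd3 in endothelial-like cells (1.04); without tamoxifen 1, Ndufa8 in B cell-like (0.95) and mt-Atp8 in NK cell-like cells (-2.14). A group left with 1 mouse is assumed to vary like the other. Types whose shares did not overlap between the groups numbered 5 for the mitochondrial and 4 for the nuclear share, and 6 to 15 and 9 to 11 with 1 mouse left out, where fewer mice make overlap rarer. With the replicate number as a replicate block the tamoxifen count stayed 0, and without the mouse block the pair counts were 60, 89, 74 and 78. Over all genes, mice with the same number did not deviate together in each type (r from -0.136 to 0.149 over the 16 types, 2 pairs), so the numbers were not treated as pairing the mice, although the mt-Atp8 share and the club or secretory-like shares split by number.

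With 1 mouse left out, the pair counts ranged from 49 to 61, 83 to 85, 71 to 74 and 76 to 78, beside 63, 88, 75 and 79. DESeq2 called 44, 82, 69 and 71. Plain UMI totals, added after seeing the data, called 44 members (19 higher, 25 lower) in alveolar type 2-like against endothelial-like cells. They reversed Atp5g1 (-0.24), Atp5g2 (-0.0697), Atp5g3 (-0.16), Cox6b1 (-0.0408), Cox7a2 (-0.31), Ndufa4 (-0.56) and mt-Atp8 (-0.0198) there; mt-Co2 (-0.11) and mt-Nd2 (-0.0182) between the macrophage-like types; and Atp5f1 (-0.74), Atp5l (-0.66), Cox5b (-0.99), Cox6b2 (-0.27), Cox8a (-0.0945), Ndufa7 (-0.33), Ndufb9 (-0.27) and Ndufs5 (-0.75) between neutrophil-like and non-classical monocyte-like cells. The scaling itself shifts all genes of a pair alike. Over all alternatives 1640 of 1708 values of named members in the pairs kept direction and side of the threshold, 17 became stronger, 34 weaker and 17 reversed, and 283 of 288 mean shares moved by less than the spread between mice. Cardiac muscle-like against alveolar fibroblast-like cells could not be fitted, with under 10 cardiac cells in each mouse. Depth limits the rare forms, some of which rest on 1 to 3 UMIs in a type.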
